A study of Mus musculus with 247 samples.

Results

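Cytosolic ribosomal protein genes were followed in RAW264.7, a macrophage-like line of BALB/c mouse origin, with and without GPS2, which works in the nucleus as part of the NCoR and SMRT corepressor complex. The genes were taken from the RNA table by symbol: every symbol starting with Rpl or Rps and a digit, with the stalk genes Rplp0, Rplp1 and Rplp2 and with Rpsa, and without the S6 kinase genes and symbols marked as pseudogenes. This gave 86 of 14378 genes, and 86 of the 11791 genes that passed the filter on low values. Of them, 46 encode proteins of the large subunit, 31 encode proteins of the small subunit, and 9 are paralogs, copies or, in the case of Rps19bp1, a gene named for binding a ribosomal protein.

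Ribosomal proteins join the ribosomal RNAs to form the large and the small subunit of the ribosome that translates mRNA in the cytosol. Their mRNAs are short and abundant, and many begin with a C followed by a run of pyrimidines, the terminal oligopyrimidine (TOP) tract, through which mTOR signalling and the RNA-binding protein LARP1 control their translation. Lipopolysaccharide (LPS), a bacterial cell wall component, activates macrophages and is known to engage mTOR and Myc, a transcription factor that drives genes of ribosome production.

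The RNA groups were GPS2 knockout (KO) cells, made with CRISPR, and wild-type (WT) cells, each untreated and each after 6 hours with LPS at 10 ng/ml, with 4 poly(A) RNA libraries per group. ChIP-seq of RNA polymerase II and of the Mediator subunit MED1 covered KO and WT cells after 2 hours with LPS (2 libraries per group), and ATAC-seq, which reads open chromatin, covered untreated KO and control cells (3 libraries per group). No label names separate KO clones, so a difference between clones and the loss of GPS2 cannot be told apart. The labels do not say that the RNA libraries came from separate cultures, so p-values measure only the spread between these libraries, which may be technical.

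RNA libraries held 12094940 to 22968591 mapped reads. Gps2 itself averaged 132 ± 2.38 normalised reads (per 10000000 mapped reads) in KO cells and 434 ± 18.5 in WT cells, and 90.3 ± 9.60 in KO cells with LPS and 440.5 ± 36.7 in WT cells with LPS (SD, n = 4). Of 9 macrophage markers 9 passed the filter, while of 5 lymphocyte and of 5 fibroblast or epithelium markers 1 each stood in the table and 0 passed. Their summed level was at most 0.652 and 1.097 normalised reads in any library. The macrophage markers themselves summed to 117042 to 123450 normalised reads in KO cells, against 84252 to 93156 in WT cells. With LPS they summed to 104304 to 109737 in KO cells, against 83902 to 112283 in WT cells. Lyz2 was the largest part of the untreated sums, averaging 72285 in KO cells and 48301 in WT cells. Spi1 went the other way (2075 and 3230), Adgre1 was close (695 and 702), and the others averaged higher in untreated KO cells. With LPS, Spi1, Fcgr1 and Cd14 averaged lower in KO than in WT cells and the others higher. The part of these markers in the results below was not tested. In bulk RNA, fewer cells of a type and less RNA per cell cannot be told apart.

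Replicate 4 of WT cells with LPS stood apart before any comparison was made. The 86 genes took 2.46, 2.46, 2.42 and 2.41% of mapped reads in KO cells with LPS, against 2.75, 2.64, 3.04 and 5.22% in WT cells with LPS. That library was the highest of its group for 86 of 86 genes, at 1.149 to 3.09 times the mean of replicates 1 to 3 (median 2.11). The genes are short, with a median transcript length of 705.5 bases against 2843 for all genes tested, and 63 of 86 are under 1000 bases. Across all genes tested, Spearman's rank correlation of transcript length with the change of KO against WT cells with LPS was 0.31 with that library and 0.086 without it, both across genes, which are not independent replicates. Results below that involve WT cells with LPS are therefore given with and without it, or the text says which was used. Those on library totals and from fits of only the groups compared include it.

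**Figure D1:**
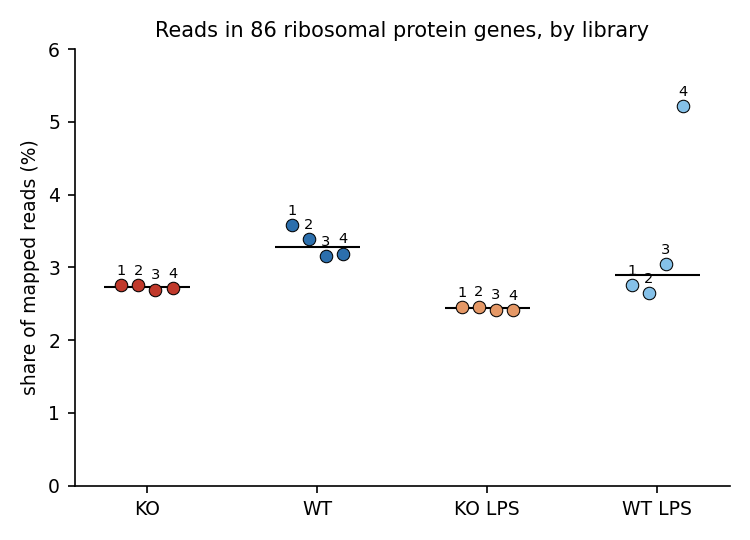
Percent of mapped reads in the 86 ribosomal protein genes, 1 point per library with its replicate number, in KO and WT cells without and with LPS (bars are medians). Untreated KO libraries lie between 2.69 and 2.76% and untreated WT libraries between 3.16 and 3.58%, and KO libraries with LPS between 2.41 and 2.46%. Replicate 4 of WT cells with LPS is at 5.22%, above the other libraries of its group at 2.64 to 3.04%.

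Without LPS the same share was 2.76, 2.75, 2.69 and 2.72% in KO cells, against 3.58, 3.39, 3.16 and 3.19% in WT cells, so that the groups did not overlap. It averaged 2.73 ± 0.031% in KO cells and 3.33 ± 0.196% in WT cells (SD, n = 4).

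Levels between genes are compared per kilobase of transcript. The 86 genes had a median of 3168 normalised reads per kb in untreated WT cells, against 92.7 for all genes tested, and 73 of them exceeded 1000 per kb. The highest in WT cells were the large subunit genes Rpl4, with 13973 ± 479 per kb in KO cells and 16422 ± 725 in WT cells, and Rpl8, with 12287 ± 561 in KO cells and 16071 ± 840.4 in WT cells (SD, n = 4). In WT cells Rpl4 and Rpl8 lay within their spread of each other. The lowest were Rpl3l, known as the paralog of Rpl3 used in striated muscle, with 7.13 ± 0.886 per kb in KO cells and 1.78 ± 0.305 in WT cells, then Rpl29, with 8.47 ± 1.00 in KO cells and 6.84 ± 1.58 in WT cells, and Rpl21, with 13.05 ± 1.12 in KO cells and 12.5 ± 0.976 in WT cells.

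Counting is uncertain for this family. RefSeq annotates 319 pseudogene copies for 63 of the 86 genes, and how the authors treated reads that match several copies was not given in the sources used here. Of the lowest genes above, Rpl21 has 15 such copies, Rpl29 has 5 and Rpl3l has 0. Rps12, with 23 copies, stood at 5972 normalised reads per kb in untreated WT cells. Whether reads of Rpl21 and Rpl29 were lost because they match copies was not tested, so their low values may not be their true levels. The rows Rps27 and Rps27rt sit at 1 locus in the table (build mm9, chromosome 3, 90016589 to 90017570 and 90016589 to 90017569), so they hold largely the same reads, while RefSeq (GRCm38.p6) places Rps27rt on chromosome 9.

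Promoter windows show the sequence feature for which these genes are known. RefSeq promoters (GRCm38.p6) matched 66 of the 86 genes, and the TOP form, searched as a C and 4 more pyrimidines on the sense strand, all within the 5 bases before and the 5 bases after a start, was present in 23 of 66 (34.8%), against 12.8% of 27025 genes. The windows below run from 10 bases before to 20 bases after the annotated start, 5′ to 3′, with the whole pyrimidine run, from its first C in the window, in capitals. Of the 66 genes, 10 have several annotated starts, and a gene counts as having the form if any of its starts has it. The windows are shown for genes of the results that follow. For Rpl35a the window shown is the one with the form, and those of its other annotated starts lack it. Rpl7a and Rpl28 were lower in KO cells. Rps27 was lower with LPS and, only once replicate 4 of WT cells with LPS was left out, also without LPS. Rps28 was higher, Rpl35a and Rpl22l1 led the response of WT cells to LPS, and Rps27rt is the copy placed elsewhere by RefSeq.
Rpl7a, chr2:26910797-26910826, plus strand: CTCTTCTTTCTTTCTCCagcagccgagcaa
Rpl28, chr7:4792955-4792984, plus strand: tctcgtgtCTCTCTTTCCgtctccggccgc
Rps27, chr3:90213629-90213658, minus strand: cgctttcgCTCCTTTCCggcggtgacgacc
Rps27rt, chr9:114982720-114982749, minus strand: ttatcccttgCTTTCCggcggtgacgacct
Rps28, chr17:33824543-33824572, minus strand: cgcgtgcggtctcgcgagagcgaaagtgag
Rpl35a, chr16:33056472-33056501, plus strand: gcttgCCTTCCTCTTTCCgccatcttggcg
Rpl22l1, chr3:28805498-28805527, plus strand: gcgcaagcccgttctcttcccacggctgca
Rps27 and Rps27rt share a run of 19 bases in these windows, which spans the pyrimidines and the bases after them. The windows of Rps28 and Rpl22l1 have no match in the bases searched, which says only that these letters are not there, and that of Rpl22l1 holds a run of pyrimidines that begins just after the annotated start and reaches past those bases. Upstream of the start, on either strand, the letters CCGGAAG stood in 27.3% of the 66 genes against 7.83% of all genes, GGGCGG in 50.0% against 35.4%, AAGATGG in 7.58% against 5.18% and TATAAA in 7.58% against 14.3%. CCGGAAG and AAGATGG share the letters AAG, so that matches of these can overlap, and the RefSeq table is not complete.

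Without LPS, most ribosomal protein genes were slightly lower in KO than in WT cells. The log2 change of KO against WT cells was below 0 for 67 of 86 genes, with a median of -0.20, against 0.0084 for all genes tested, and its middle range across the genes ran from -0.36 to -0.010. The decline was shared by the large subunit (36 of 46 below 0, median -0.22) and the small subunit (26 of 31 below 0, median -0.19), while the 9 paralogs and copies had a median of -0.0050. All 4 KO libraries lay below all 4 WT libraries for 46 of 86 genes (background over all genes tested, 27.3%) and above them for 4 (background 27.9%). Spearman's rank correlation of transcript length with this untreated change was 0.14 across all genes tested, which are not independent replicates. With a trend on transcript length removed, 55 of the 86 genes were below 0. Their median was then -0.13, against -0.0019 for all genes tested. How much of the decline goes with length was not tested.

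How many of these small differences passed depended on the library that stood apart, because the 4 groups share 1 estimate of the spread. With 16 libraries, 12 genes were lower and 2 higher (limma, adjusted p under 0.05), which is 14% and 2.33% of the 86 genes against a background of 17.5% and 18%. Without replicate 4 of WT cells with LPS, 52 were lower and 5 higher (background 29.1% and 30.2%), and in a fit of only untreated libraries 54 were lower and 5 higher (background 30.4% and 31.3%). The log2 changes themselves did not involve that library.

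Rps14, a small subunit protein gene, had the lowest change among the subunit genes. It stood at 2838, 3331, 2757 and 3104 normalised reads in KO cells, against 4766, 5335, 4943 and 4594 in WT cells. The groups did not overlap, and the log2 change was -0.71 ± 0.20, adjusted p = 0.0119. Rpl7a, of the large subunit (NM_013721, mm9 chromosome 2, 26766327 to 26768831), stood at 1171, 1391, 1246 and 1276 in KO cells, against 1993, 2202, 2142 and 1823 in WT cells. Each KO library was again below each WT library, with a log2 change of -0.68 ± 0.11, adjusted p = 0.000205. Among the other genes that fell with 16 libraries were Rps15, Rps18, Rpl17, Rpl28, Rpl13a, Rpl10a, Rpl15 and Rpl6, with log2 changes between -0.58 and -0.33, and Rpl32l.

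Rps28, another small subunit protein gene (NM_001355384, mm9 chromosome 17, 33959981 to 33961507), went the other way. It stood at 1311, 1249.8, 1123 and 1149 in KO cells, against 980.2, 691, 704 and 679.9 in WT cells, where replicate 1 was far above the others. The groups did not overlap, and the log2 change was 0.68 ± 0.25, adjusted p = 0.0434. This call was fragile and was lost in 14 of 26 alternatives, while without replicate 4 of WT cells with LPS it had adjusted p = 0.000377. Rpl38, Rps12 and Rpl37rt were also higher without that library, at 0.30, 0.15 and 0.17 on the log2 scale.

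**Figure D2:**
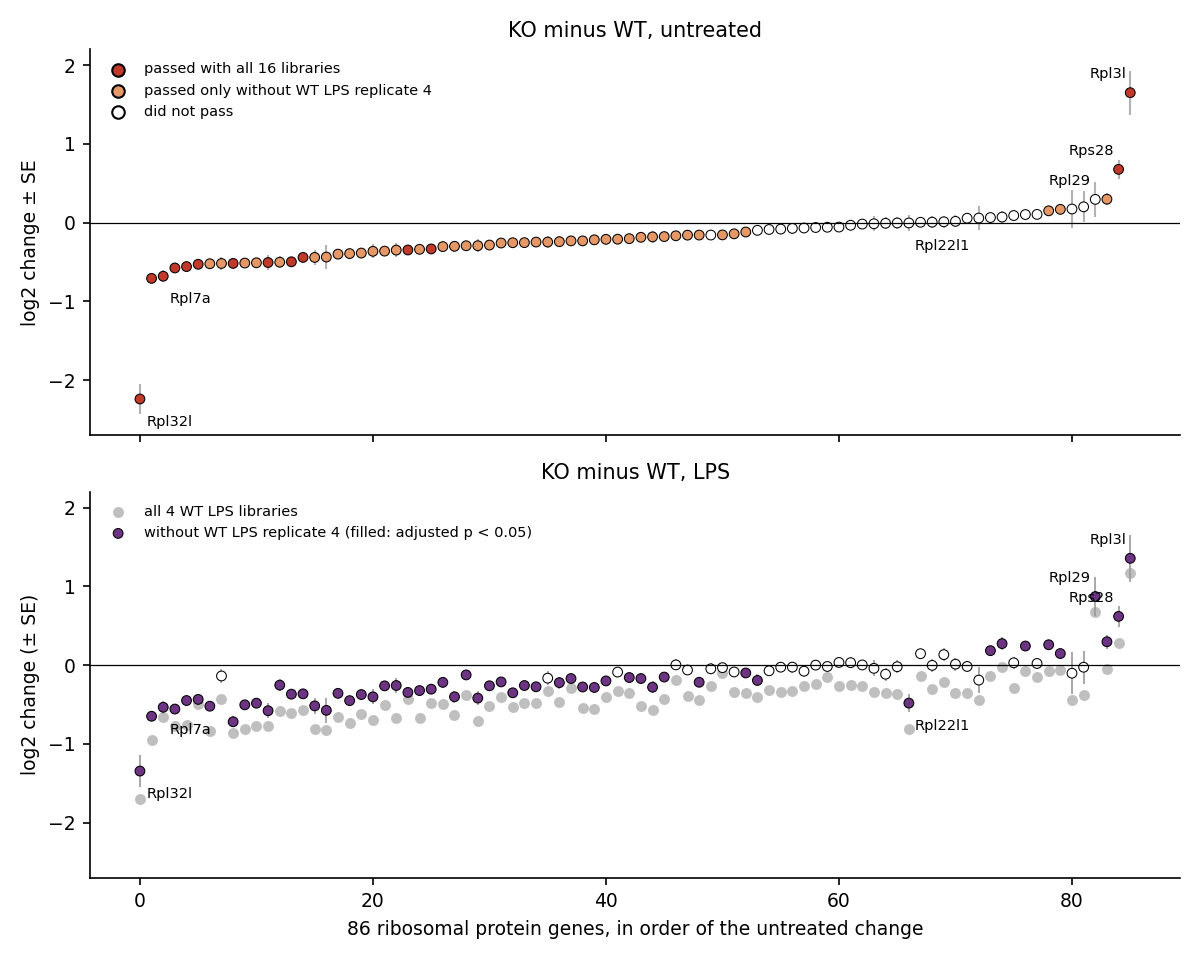
Log2 change of KO against WT cells for the 86 genes, in order of the untreated change (points with SE bars). In the upper panel fill shows which genes passed with 16 libraries, which passed only without replicate 4 of WT cells with LPS, and which did not pass. In the lower panel the gray points use 4 WT libraries with LPS and the outlined points leave out replicate 4, so that the median moves to -0.17 from -0.42 with that library.

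The stalk genes encode the acidic proteins that recruit translation factors to the large subunit. Rplp2 stood at 2623, 2709, 2611 and 2695 in KO cells, against 3772, 3145, 3321 and 3254 in WT cells, with no overlap (log2 -0.34 ± 0.23, adjusted p = 0.287, or adjusted p = 6.29e-05 without replicate 4 of WT cells with LPS). Rplp0 was at 8619.5, 8488, 8391 and 8519.8 in KO cells, against 10605, 8496, 9637 and 9592 in WT cells, and Rplp1 at 6434, 6611, 5840.3 and 6246 in KO cells, against 6784, 6328, 5204 and 5424 in WT cells. Both overlapped between the groups, with a log2 change of -0.17 ± 0.14, adjusted p = 0.393 for Rplp0 (adjusted p = 0.0351 without that library) and of 0.089 ± 0.22, adjusted p = 0.789 for Rplp1. Rpsa, a small subunit protein also known as the laminin receptor, was at 3081, 3156, 3175 and 3206 in KO cells, against 3968, 3326, 3573 and 3701 in WT cells, without overlap and with a log2 change of -0.20 ± 0.14, adjusted p = 0.292 (adjusted p = 0.00295 without that library).

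Among paralogs and copies the changes were the largest of the family, at low levels. Rpl32l, a copy of Rpl32 (NM_001101561, mm9 chromosome 10, 19928245 to 19928836), stood at 11.8, 6.62, 7.20 and 6.12 in KO cells, against 37.9, 43.3, 36.5 and 42.8 in WT cells. The groups were far apart, with a log2 change of -2.24 ± 0.29, adjusted p = 1.99e-05. Rpl3l stood at 11.2, 8.28, 9.60 and 9.69 in KO cells, against 1.97, 2.19, 2.90 and 2.59 in WT cells, also without overlap (log2 1.65 ± 0.28, adjusted p = 0.000219). At such levels the 1 added to each value understates a log2 change.

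The better expressed paralogs differed among themselves. Rps27rt, which shares its locus with Rps27 in the table, was at 1497 ± 25.1 in KO cells and 2154 ± 132 in WT cells, beside Rps27 at 1520.3 ± 23.02 in KO cells and 2174 ± 136 in WT cells (SD, n = 4). Rps27l, known as a p53-induced paralog of Rps27, was at 1192 ± 53.9 in KO cells and 1141 ± 142 in WT cells. The log2 changes were -0.52 for Rps27rt, -0.51 for Rps27 and 0.070 for Rps27l, of which the first and second passed only without replicate 4 of WT cells with LPS. Rpl36al averaged 677 ± 27.4 in KO cells and 924 ± 102 in WT cells, Rpl22l1 averaged 173 ± 17.5 in KO cells and 174 ± 24.5 in WT cells, and Rpl37rt averaged 890.4 ± 41.1 in KO cells and 794 ± 72.6 in WT cells. Rpl7l1 averaged 1295 ± 40.7 in KO cells and 1443 ± 21.1 in WT cells, and Rps19bp1 averaged 311 ± 30.98 in KO cells and 289 ± 20.48 in WT cells. None of these 5 passed with 16 libraries (lowest adjusted p = 0.0696, for Rpl7l1). Once replicate 4 of WT cells with LPS was left out, Rpl36al (log2 -0.44 ± 0.091, adjusted p = 0.00057) and Rpl7l1 (log2 -0.16 ± 0.037, adjusted p = 0.000852) were lower and Rpl37rt was higher (log2 0.17 ± 0.054, adjusted p = 0.0106).

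With LPS, the KO cells again held less ribosomal protein RNA than WT cells, by an amount that depended on the library that stood apart. With 16 libraries 41 genes were lower and 2 higher in KO cells with LPS (background 22.1% in each direction), with a median log2 change of -0.42 against 0.0011 for all genes tested. Without replicate 4 of WT cells with LPS, 47 were lower and 9 higher (background 29% and 28.8%), and the median was -0.17. In a fit of only the libraries with LPS, 10 were lower and 1 higher (background 13.8% and 13.3%). All 4 KO libraries lay below all WT libraries for 41 of 86 genes (background 19.4%) and above them for 1 (background 20.1%). Without that library they lay below for 41 (background 27.3%) and above for 7 (background 27.1%).

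The comparisons with and without LPS have no library in common. Without replicate 4 of WT cells with LPS, 45 genes were lower in both, which is 86.5% of the 52 lower without LPS and 95.7% of the 47 lower with LPS. Over all genes tested, 58% of those lower without LPS and 58.2% of those lower with LPS were lower in both in that fit. With 16 libraries 12 genes were lower in both, which is 100.0% of the 12 lower without LPS and 29.3% of the 41 lower with LPS. Over all genes tested these shares were 59.5% and 47.1%. In fits of only the groups compared 10 were lower in both, which is 18.5% of 54 and 100.0% of 10. Over all genes tested the shares were then 30.6% and 67.3%. Once replicate 4 of WT cells with LPS was left out, the same 5 genes that were higher without LPS (Rpl3l, Rps28, Rpl38, Rpl37rt and Rps12) were among the 9 that were higher with LPS. That is 100.0% of the 5 and 55.6% of the 9, against 52.5% and 55% over all genes tested.

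Rps14 stood at 3457, 3394, 3366 and 3432 in KO cells with LPS, against 5562, 4942, 5574 and 12330.4 in WT cells with LPS. Replicates 1 to 3 of WT cells were already above each KO library, and the log2 change was -0.95 ± 0.20, adjusted p = 0.00131, or -0.65 ± 0.058, adjusted p = 6.52e-09 without replicate 4. Rpl17, of the large subunit, stood at 947, 1039.8, 1010.1 and 994 in KO cells with LPS, against 1635, 1427, 1897 and 2434 in WT cells with LPS. It did not overlap either, with a log2 change of -0.86 ± 0.12, adjusted p = 2.83e-05, or -0.72 without replicate 4. Rpl7a stood at 1498, 1509, 1449 and 1464 in KO cells with LPS, against 2357, 1803, 2321 and 2994 in WT cells with LPS, a log2 change of -0.66, or -0.53 without replicate 4.

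Rps28 shows what that library did to a single gene. It stood at 1274, 1309, 1326 and 1306 in KO cells with LPS, against 743, 787, 1045 and 2203 in WT cells with LPS. Replicate 4 lay above each KO library and replicates 1 to 3 below them. The log2 change was 0.27 ± 0.25, adjusted p = 0.378 with it, and 0.62 ± 0.13, adjusted p = 0.00137 without it.

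**Figure D3:**
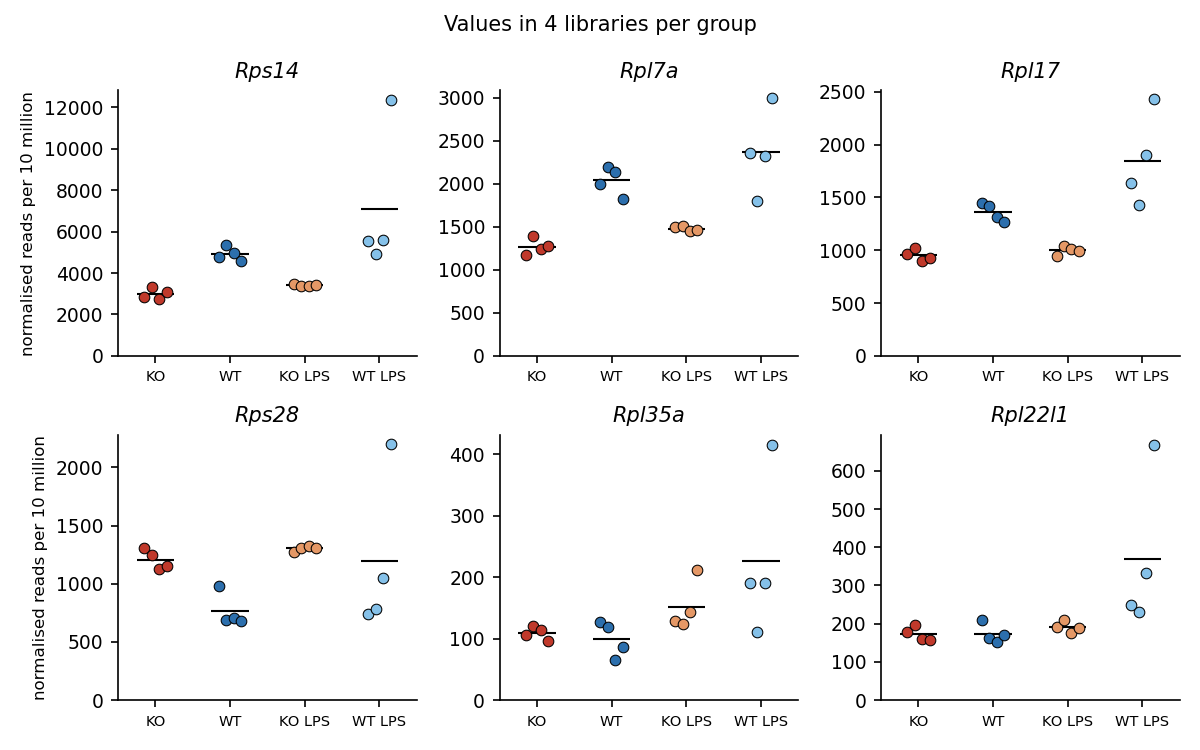
Normalised reads (per 10000000 mapped reads) of 6 ribosomal protein genes in KO and WT cells without and with LPS, 1 point per library in replicate order and a bar at the mean. Rps14, Rpl7a and Rpl17 are lower in KO libraries, Rps28 is higher in untreated KO libraries, and replicate 4 of WT cells with LPS is the highest WT library with LPS in each panel.

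Rpl29 was the other gene that rose with 16 libraries. It stood at 20.2, 24.4, 16.5 and 12.4 in KO cells with LPS, against 12.7, 8.54, 7.43 and 16.7 in WT cells with LPS. The groups overlapped with and without replicate 4 of WT cells, the log2 change was 0.68 ± 0.25, adjusted p = 0.0367 (0.87 ± 0.24, adjusted p = 0.00354 without that library), and the call was lost in 6 of 26 alternatives. Of the low copies, Rpl3l was at 7.17, 8.14, 4.51 and 9.56 in KO cells with LPS, against 1.02, 3.56, 2.48 and 4.39 in WT cells with LPS (log2 1.16 ± 0.28, adjusted p = 0.00307, or 1.36 ± 0.30, adjusted p = 0.000442 without replicate 4). Rpl32l was at 13.03, 22.4, 15.04 and 12.4 in KO cells with LPS, against 36.6, 43.4, 41.6 and 109 in WT cells with LPS (log2 -1.70 ± 0.29, adjusted p = 0.000253, or -1.34 ± 0.21, adjusted p = 4.78e-06 without replicate 4). Every KO library was thus above every WT library for Rpl3l and below for Rpl32l.

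Of the stalk genes, Rplp2 was lower in KO than in WT cells with LPS. It was at 3197, 3399.7, 3072 and 2994 in KO cells with LPS, against 3703, 3733, 4476 and 10497 in WT cells with LPS, with a log2 change of -0.67 (adjusted p = 0.0281), or -0.32 (adjusted p = 0.000246) without replicate 4. Rplp0 and Rplp1 had log2 changes of -0.19 and -0.29, or 0.0031 and 0.030 without it, none of which passed. Rpsa had -0.36 (adjusted p = 0.0529), or -0.16 (adjusted p = 0.0269) without it.

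LPS raised the ribosomal protein genes relative to the typical gene in both kinds of cells, in small steps. In WT cells 57 of 86 were higher after LPS and 0 lower with 16 libraries (background 34.2% higher and 36.2% lower), with a median log2 change of 0.48 against -0.024 for all genes tested. At an unadjusted p under 0.05 (limma) the counts were 62 and 0, against 8559 of all 11791 genes in both directions together. They were 57 and 0 with precision weights (4080 and 4348 over all genes) and also with library weights (4538 and 4693 over all genes). Without replicate 4, 56 were higher and 0 lower (background 39.3% and 40.9%) with a median of 0.22. In KO cells 8 were higher and 0 lower (background 31.5% and 36.1%), with a median of 0.24 against -0.048 for all genes tested. At an unadjusted p under 0.05 (limma) the counts in KO cells were 10 and 0, against 8220 of all 11791 genes in both directions together. They were 8 and 0 with precision weights (3754 and 4294 over all genes) and 75 and 0 with library weights (4707 and 5134 over all genes). In the fit without that WT library 73 were higher and 0 lower in KO cells (background 39% and 42.3%). All 4 KO libraries with LPS lay above all 4 untreated KO libraries for 76 of 86 genes (background 37.6%) and below them for 0 (background 40.3%), and in WT cells the libraries with LPS lay above the untreated ones for 28 (background 28.7%) and below for 0 (background 31.8%), and for 28 and 0 again without replicate 4 (background 36.6% and 38.8%). In fits of only the groups compared, 81 were higher and 1 lower in KO cells (background 40% and 43.4%), and 10 higher and 0 lower in WT cells (background 28.5% and 31.8%).

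The direction of the LPS response rests on the scaling. The trimmed mean scaling used here sets the bulk of genes near 0, while on library totals the median gene was lower after LPS, with a log2 change of -0.43 in KO cells and -0.48 in WT cells. On library totals the 86 genes had a median of -0.15 in KO cells, with 1 higher and 7 lower (background 16.9% and 57.5%), and of 0.013 in WT cells, with 1 higher and 6 lower (background 16.7% and 59.8%), replicate 4 with LPS included. Their share of mapped reads was 2.44 ± 0.024% in KO cells with LPS and 2.73 ± 0.031% in untreated KO cells (SD, n = 4). In WT cells it was 3.41 ± 1.21% with LPS (SD, n = 4), or 2.81 ± 0.206% without replicate 4 (SD, n = 3), and 3.33 ± 0.196% untreated (SD, n = 4), so that it was lower with LPS once that library was left out. The rise is therefore one relative to other genes, which fell on library totals.

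Rpl35a, of the large subunit (NM_001130484, mm9 chromosome 16, 33056568 to 33060274), had the largest rise in WT cells, at 190.4, 111, 191 and 415 in WT cells with LPS, against 128, 119.6, 65.1 and 86.9 in untreated WT cells. Replicate 2 with LPS lay within the untreated range, and the log2 change was 1.06 ± 0.31, adjusted p = 0.00644, or 0.72 ± 0.26, adjusted p = 0.0236 without replicate 4. Rpl22l1, a paralog of Rpl22 (NR_154889, mm9 chromosome 3, 28704430 to 28706346), stood at 249, 231, 332 and 669 in WT cells with LPS, against 209, 163, 153 and 170.3 in untreated WT cells. Here each library with LPS lay above each untreated one, with a log2 change of 0.96 ± 0.24, adjusted p = 0.00218, or 0.63 ± 0.12, adjusted p = 5.59e-05 without replicate 4. Rpl39, a small protein of the exit tunnel, stood at 3529, 2847, 3618 and 8688 in WT cells with LPS, against 2907, 2864, 1381 and 2469 in untreated WT cells. Its replicate 2 with LPS overlapped the untreated libraries, and the log2 change was 0.87 ± 0.28, adjusted p = 0.0115, or 0.52 ± 0.21, adjusted p = 0.0391 without replicate 4.

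In KO cells the largest rises were those of Rpl32l, Rpl29 and Rpl7l1. Rpl7l1, a paralog of Rpl7, stood at 2245, 2238, 2230.0 and 2211 in KO cells with LPS, against 1238, 1328, 1319.9 and 1292 in untreated KO cells (log2 0.79 ± 0.064, adjusted p = 1.81e-08). In WT cells it stood at 2348, 2120.1, 2385 and 2762 with LPS, against 1464, 1424, 1458 and 1425 untreated (log2 0.73 ± 0.064, adjusted p = 3.92e-08, or 0.66 ± 0.040, adjusted p = 6.65e-14 without replicate 4). Its groups lay far apart in both kinds of cells. Rpl32l rose by 0.91 ± 0.29, adjusted p = 0.0125 and Rpl29 by 0.80 ± 0.25, adjusted p = 0.00921 on the log2 scale in KO cells, both at low levels. Rps19bp1 averaged 387 ± 10.5 in KO cells with LPS and 311 ± 30.98 in untreated KO cells (SD, n = 4; log2 0.32 ± 0.13, adjusted p = 0.0469).

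The size of the LPS response was then compared between KO and WT cells. With 16 libraries 0 genes differed (limma; background 10.2% higher and 10.4% lower). At an unadjusted p under 0.05 the counts were 0 and 1, against 3676 of all 11791 genes in both directions together. They were 0 and 0 with precision weights (1240 and 1196 over all genes) and 2 and 2 with library weights (2259 and 2300 over all genes). Even so, the median difference of the responses, KO minus WT, was -0.24 with 16 libraries. Without replicate 4 of WT cells with LPS that median was 0.020, of the opposite sign, and 4 genes passed (background 19.2% higher and 19.9% lower). Rpl32l, Rpl30 and Rpl37, of the large subunit family, then responded more in KO cells, by 0.89, 0.38 and 0.17 on the log2 scale. Rpl22l1 responded less, with a difference of -0.48 ± 0.16, adjusted p = 0.021: it stood at 190.2, 210.4, 175 and 189 in KO cells with LPS, against 249, 231, 332 and 669 in WT cells with LPS, and did not overlap.

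The TOP form at an annotated start was then set beside the changes. Without replicate 4 of WT cells with LPS, the 23 genes with the form had a median log2 change of KO against WT cells of -0.24 without LPS and -0.22 with LPS, and the 43 without it had -0.21 and -0.17. For LPS against untreated the medians were 0.25 in KO cells and 0.23 in WT cells with the form, and 0.22 and 0.21 without it. With that library the medians were -0.47 and -0.39 for KO against WT cells with LPS and 0.49 and 0.44 for LPS in WT cells, with the form first. The 43 genes without the form are not known to lack a TOP tract. A run of pyrimidines outside the bases searched, as at Rpl22l1, counts as without the form. The difference between the kinds of promoter was not tested.

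Some ribosomal genes fall outside the symbol rule. Rack1, a scaffold protein of the small subunit, averaged 14168 ± 162 in KO cells and 16464 ± 812 in WT cells (adjusted p = 0.221), and Fau, a fusion gene for a small subunit protein, averaged 2915 ± 104 in KO cells and 3271 ± 422 in WT cells (adjusted p = 0.622). The ribosomal protein gene Rps27a, a fusion of ubiquitin with a small subunit protein that is named here after its values were seen, had a log2 change of 0.10 without LPS (adjusted p = 0.754) and -0.075 with LPS (adjusted p = 0.791), or 0.24 without replicate 4 of WT cells (adjusted p = 0.00343).

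Of 17 other mRNAs known to carry a TOP tract, 0 were higher and 2 lower in untreated KO cells (background 18% and 17.5%). In KO cells with LPS 0 were higher and 6 lower (background 22.1% in each direction). Without replicate 4 of WT cells with LPS the counts were 1 and 13 without LPS (median -0.17, background 30.2% and 29.1%). With LPS they were then 4 and 8 (median -0.072, background 28.8% and 29%). Eif3f, a subunit of an initiation factor, averaged 2654 ± 42.8 in KO cells and 3547 ± 148 in WT cells (SD, n = 4; log2 -0.42 ± 0.15, adjusted p = 0.0423). Npm1, a nucleolar chaperone, rose with LPS to 14121, 14673, 13622 and 13529 in KO cells with LPS, against 10228, 9378, 10004 and 9649 in untreated KO cells (log2 0.51 ± 0.15, adjusted p = 0.00642). Eif4b, an initiation factor, went the other way, at 4209 ± 838 in WT cells with LPS and 7369 ± 321 in untreated WT cells (log2 -0.83 ± 0.11, adjusted p = 4.74e-06, or -0.68 ± 0.037, adjusted p = 6.43e-15 without replicate 4).

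Ribosome biogenesis genes make and process ribosomal RNA and assemble subunits. Of 30, LPS raised 24 and lowered 0 in KO cells (median 0.66, background 31.5% and 36.1%). In WT cells LPS raised 20 and lowered 3 (median 0.32, background 34.2% and 36.2%). Without replicate 4 it raised 22 and lowered 4 there (median 0.33, background 39.3% and 40.9%). In the fit without that library LPS raised 26 and lowered 1 in KO cells (background 39% and 42.3%). On library totals the counts were 16 and 4 in KO cells (median 0.27, background 16.9% and 57.5%). In WT cells they were 6 and 11 (median -0.15, background 16.7% and 59.8%), so that the direction in WT cells rests on the scaling. The responses differed for 10, each higher in KO cells (background 10.2% higher and 10.4% lower). Without replicate 4 of WT cells with LPS, 20 were higher and 1 lower (background 19.2% and 19.9%). Polr1b, the second largest subunit of RNA polymerase I, stood at 892, 918, 903 and 887 in KO cells with LPS, against 561, 500.5, 522 and 331 in WT cells with LPS. The groups were far apart, and the difference of the LPS responses was 1.14 ± 0.17, adjusted p = 0.000127, or 0.97 ± 0.068, adjusted p = 1.62e-11 without replicate 4. Rrp9, of the small nucleolar complex that processes ribosomal RNA, rose in both, by 1.22 ± 0.12, adjusted p = 3.1e-07 in KO cells and 1.24 ± 0.12, adjusted p = 2.34e-07 in WT cells (1.07 ± 0.062, adjusted p = 2.52e-14 without replicate 4). Ubtf, a factor that starts ribosomal RNA transcription, was at 1275, 1399, 1271 and 1398 in KO cells, against 2032, 2239.6, 2135 and 2096 in WT cells, without overlap (log2 -0.67 ± 0.060, adjusted p = 2.49e-07).

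Among 20 regulators of ribosome production and TOP translation the changes ran both ways. With LPS 3 were higher and 4 lower in KO cells (background 22.1% in each direction), or 5 and 7 without replicate 4 of WT cells (background 28.8% and 29%). The responses differed for 8, of which 4 were higher and 4 lower (background 10.2% and 10.4%, median difference 0.17), or for 6 higher and 8 lower without that library (background 19.2% and 19.9%, median -0.0030). Myc stood at 1672, 1647, 1683 and 1676 in KO cells with LPS, against 1041, 1038, 1072 and 1057 in WT cells with LPS, and at 12.9, 9.94, 13.4 and 14.3 in untreated KO cells, against 22.6, 21.9, 32.8 and 23.3 in untreated WT cells. It was thus higher in KO cells with LPS (log2 0.67 ± 0.12, adjusted p = 0.000263, or 0.67 ± 0.11, adjusted p = 2.09e-05 without replicate 4). Without LPS it was lower (log2 -0.93 ± 0.12, adjusted p = 1.13e-05), and replicate 4 of WT cells with LPS did not stand apart. Mycn, a paralog of Myc on the same list, was far more abundant without LPS. It averaged 6324 ± 289 in untreated KO cells and 9091 ± 400 in untreated WT cells, and fell to 3995 ± 150 and 3937 ± 489 with LPS (SD, n = 4). Mxd1, which opposes Myc at its sites, stood at 974, 1007, 965 and 976 in KO cells with LPS, against 4023, 4319.9, 3878 and 2767 in WT cells with LPS (log2 -1.91 ± 0.10, adjusted p = 7.9e-10, or -2.05 ± 0.054, adjusted p = 2.47e-20 without replicate 4). Eif4ebp1, a repressor of translation that mTOR inactivates, averaged 571 ± 23.8 in KO cells with LPS and 1029 ± 203 in WT cells with LPS (log2 -0.83 ± 0.10, adjusted p = 6.92e-06, or -0.70 ± 0.052, adjusted p = 2.23e-11 without replicate 4), and 1562 ± 65.8 in untreated KO cells and 1106 ± 63.8 in untreated WT cells (log2 0.50 ± 0.10, adjusted p = 0.00104).

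Of 78 mitochondrial ribosomal protein genes, which serve the separate ribosome of mitochondria, 4 were higher and 1 lower in untreated KO cells (median -0.027; background 18% and 17.5%). With replicate 4 of WT cells with LPS left out, 10 rose and 27 fell there (background 30.2% and 29.1%). In KO cells with LPS 3 were higher and 10 lower (median -0.16; background 22.1% in each direction), or 22 and 12 without that library (median 0.0026; background 28.8% and 29%). Mrpl52 had the largest rise of the list in KO cells, at 1614, 1636, 1569 and 1625 in KO cells with LPS, against 432, 461, 418 and 437 in untreated KO cells (log2 1.88 ± 0.22, adjusted p = 1.18e-06). Mrps6 was at the other end, at 641 ± 21.2 in KO cells with LPS and 1609 ± 22.8 in untreated KO cells (log2 -1.33 ± 0.13, adjusted p = 1.83e-07).

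**Figure D4:**
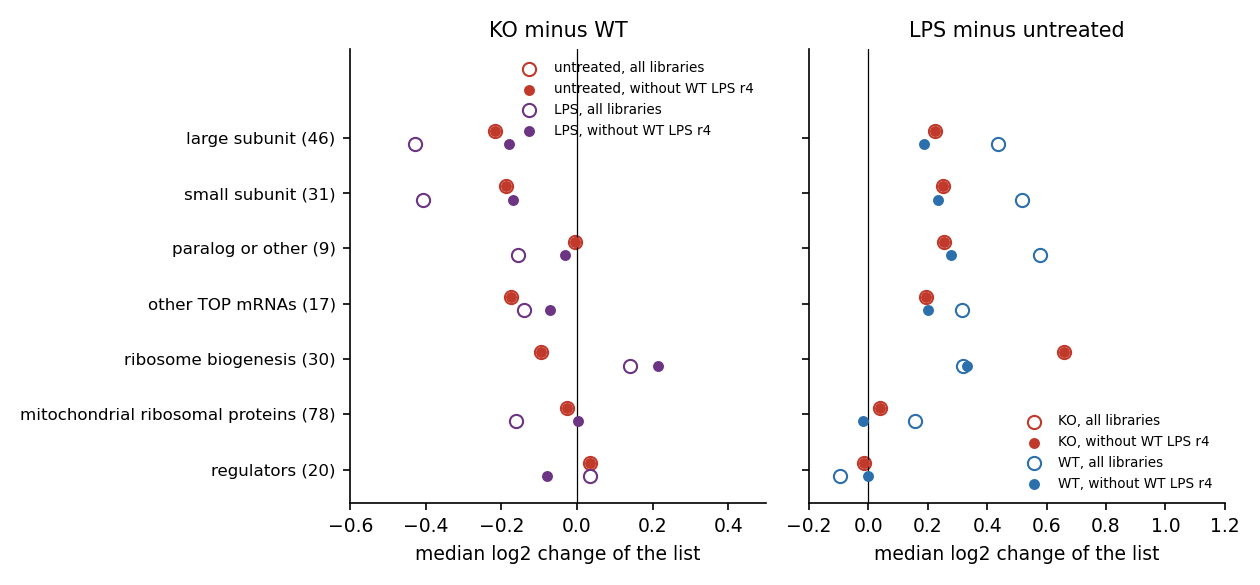
Median log2 change of each gene list (number tested in parentheses) for KO against WT cells on the left and for LPS against untreated cells on the right. Open points use 16 libraries and filled points leave out replicate 4 of WT cells with LPS. Without that library the large subunit genes lie at -0.22 in untreated KO against WT cells and at -0.18 with LPS, and the biogenesis list has the highest response to LPS in KO cells, at 0.66.

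RNA polymerase II was measured after 2 hours with LPS. Within a group the 2 libraries differed by no more than sampling noise (chi-square per region 1.03 in KO and 1.1 in WT cells), so each group is counted as 1 sample, values stand without an SD, and the tests compare the libraries, not separate cultures. The deposited regions covered 14.2 and 14.4% of mapped reads in KO libraries, against 46.4 and 45.02% in WT libraries. Changes are therefore given relative to all regions: on library totals the median of all regions was -1.88, and 62 of 64 regions of ribosomal protein genes were lower and 0 higher (background 90.4% and 2.79%).

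By nearest gene, 65 regions belonged to 50 of the 86 genes, and 64 were tested. They were 8417 bases wide in the median, so that many also cover neighbouring genes. Of the 64, 15 were higher and 11 lower in KO cells (background 24.1% and 20.3%), with a median log2 change of 0.027 against 0.0042 for all regions. Of the 42 regions that overlap the transcript of their gene (41 genes), 12 were higher and 6 lower, with a median of 0.034.

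Rps20, a small subunit protein gene, had the largest rise among regions on the gene (build mm9, chromosome 4, 3753281 to 3763456), at 1102 and 1077 normalised reads in KO libraries and 641 and 651 in WT libraries (log2 0.75 ± 0.052, adjusted p = 4.14e-17). Rpl10a, of the large subunit, followed at 1836 and 1828 normalised reads in KO libraries and 1277 and 1258 in WT libraries (log2 0.53 ± 0.037, adjusted p = 6.46e-17). The region at the Rps27 and Rps27rt locus had 999.9 and 1059 normalised reads in KO libraries and 718 and 747 in WT libraries (log2 0.49 ± 0.053, adjusted p = 7.66e-11). All 3 were higher in KO libraries relative to other regions, while the RNA of Rpl10a and of Rps27rt was lower in KO cells with LPS.

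Rps27l had the lowest value among regions on the gene, at 58.1 and 55.6 normalised reads in KO libraries and 130.3 and 127 in WT libraries (log2 -1.16 ± 0.19, adjusted p = 1.74e-06), in a region at its promoter (chromosome 9, 66793093 to 66794809), while its RNA was higher in KO cells with LPS without replicate 4 of WT cells (log2 0.27, or -0.019 with it, which did not pass). By contrast, a region downstream had 63.4 and 72.9 normalised reads in KO libraries and 76.9 and 65.9 in WT libraries (log2 -0.050 ± 0.19, adjusted p = 0.856). Rps29 had 334 and 309 normalised reads in KO libraries and 441 and 474 in WT libraries (log2 -0.51 ± 0.088, adjusted p = 5.34e-06), and Rps28, whose RNA was higher in KO cells, had 912 and 840.4 normalised reads in KO libraries and 1003 and 1010.0 in WT libraries (log2 -0.20 ± 0.054, adjusted p = 0.00201). At Rps14 the libraries were close, at 414 and 458 normalised reads in KO libraries and 448 and 438 in WT libraries (log2 -0.023 ± 0.078, adjusted p = 0.84). The most extreme regions by nearest gene were not on the genes: a small region 8105 bases from the start of Rpl28 had a log2 change of 1.89, one upstream of Rplp0 had 1.48, and one at -54051 bases from the start of Rpl31 had -1.33.

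Beside the RNA change with LPS without replicate 4 of WT cells, 7 of the 42 regions on genes were higher for RNA polymerase II on genes whose RNA was lower, 2 were lower in both, 2 were lower on genes whose RNA was higher, and 0 were higher in both. A further 14 regions that did not pass lay on genes whose RNA was lower. In all, 12 of the 42 regions were higher and 6 lower for RNA polymerase II. Of the 42, 23 lay on genes whose RNA was lower and only 4 on genes whose RNA was higher. Whether the 2 measures were related was not tested. RNA polymerase II was read at 2 hours and RNA at 6 hours.

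**Figure D5:**
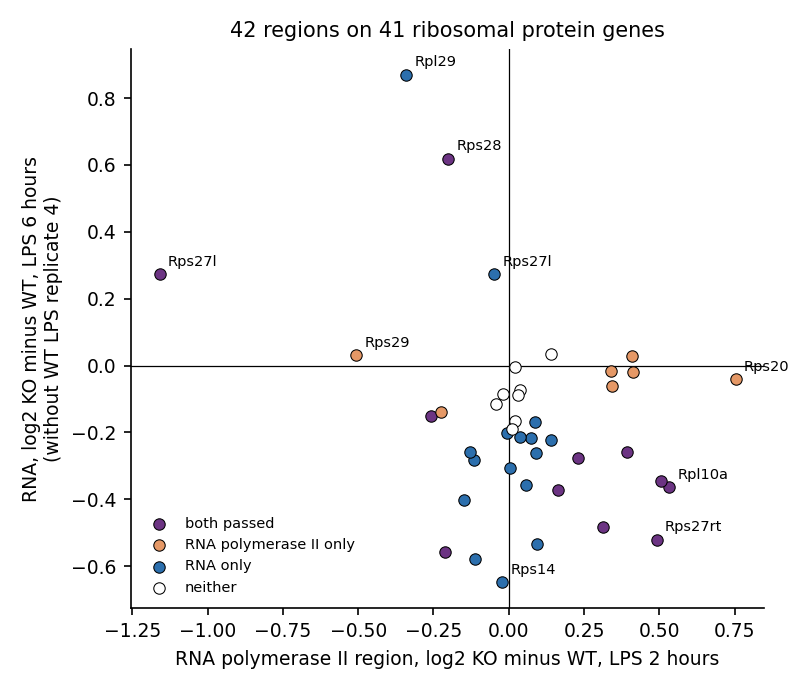
Log2 change of KO against WT cells with LPS for RNA polymerase II regions that overlap a ribosomal protein gene (horizontal) and for the RNA of that gene without replicate 4 of WT cells with LPS (vertical), 42 regions on 41 genes. Fill shows which passed the test. Rps20 lies farthest right at 0.75 with an RNA change near 0. No region that passed as higher relative to other regions lies on a gene whose RNA passed as higher, which holds for the genes of only 4 of the 42 regions.

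MED1, a subunit of the Mediator complex that links enhancers to RNA polymerase II, was measured in the same way, with 8.81 and 8.92% of mapped reads in its regions in KO libraries and 14.6 and 14.6% in WT libraries. Of 109 tested regions nearest to 65 of the genes, 5 were higher and 1 lower (background 5.16% and 1.92%), with a median of 0.048. On library totals 1 was higher and 76 lower (background 0.61% and 67.9%). Of 53 regions within 1 kb of a start, 1 was higher and 0 lower, and it lay at Rps19, with 121 and 111 normalised reads in KO libraries and 75.0 and 95.8 in WT libraries (log2 0.45 ± 0.14, adjusted p = 0.0355). A region over Rpl8 also rose (log2 0.45 ± 0.15, adjusted p = 0.0454), and the other 4 that passed, 3 higher and 1 lower, were intergenic regions 5406 to 244741 bases from the starts of Rplp1 and Rpl34.

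In untreated cells, no promoter site of these genes passed a test for a change in open chromatin between KO and control cells. Of 66 ATAC-seq sites within 1 kb of a start (66 genes), 0 were higher and 0 lower (limma; background 2.15% and 4.16% of 11732 promoter sites; 5 and 0 at an unadjusted p under 0.05, lowest adjusted p = 0.0938). Their change, on the log2 scale of the deposited values, ran from -0.15 to 0.20 with a median of 0.027, against -0.014 for all promoter sites. Over the 242 sites nearest to 74 of the genes at any distance, 14 were higher and 3 lower (background 4.04% and 3.16%). The largest rise lay at -143546 bases from the start of Rpl34, at 6.94, 6.99 and 6.96 in KO cells and 6.54, 6.35 and 6.19 in control cells (log2 0.60 ± 0.078, adjusted p = 1.05e-10), without overlap.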

How the data were processed

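RNA and ChIP-seq values were deposited as reads normalised to 10000000 mapped reads per library, per the file headers, and are treated as a score, since they are not counts as written. Per the submitters' processing notes the tools included HISAT2, Bowtie2, BWA, HOMER, MACS2, DESeq2 and edgeR, with build mm9, and versions were not given in the sources used here. The ATAC-seq values were deposited on a log2 scale, per the file headers the output of a differential step, whose transformation and depth were not given.

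RNA values were scaled by trimmed means (30% of ratios and 5% of levels trimmed) and tested as log2(value + 1), a scale that understates the change of low genes. Genes needed 10 reads at the median depth in 4 libraries and 15 reads in all. limma 3.58.1 in R 4.3.3, with a trend and robust moderation, fitted 16 libraries in 1 model with Benjamini-Hochberg adjustment at 0.05 over all genes tested, and errors are the SE of log2 changes. ChIP-seq values were tested with limma and precision weights, and ATAC-seq values with limma. The steps were tested on simulated data. Per-library values in the text (normalised reads) are the deposited values after the trimmed mean scaling, while shares of mapped reads are not scaled. Low values were whole multiples of 1 read for 100% of those examined, within 0.05 reads. The precision of low genes is limited by 12094940 to 22968591 mapped reads per RNA library.

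The genes and the companion lists were chosen with earlier results of these data known. Genes named are the 3 called with the largest change in each direction of each comparison, the 3 highest and 3 lowest per kb, all paralogs, the stalk genes, Rpsa, the extreme RNA polymerase II regions and the extremes of each companion list; some of these are not reported here. Replicate numbers did not pair the libraries (correlation of deviations -0.37 to 0.21 over 24 RNA pairs, with 1 over 0.1). The count test planned as an alternative could not be used on these values and was not run. Binding of other factors was not used here.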

Additional observations from a re-analysis of the deposited data

Results flagged for a closer look

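A library is listed here where its gap to the nearest of the other 3 of its group, as a share of the group's range, exceeded 0.829, the 95% critical value of Dixon's test for 4 values. Chance flags about 1 in 20 groups. Over the 86 genes this held for 3 genes in untreated KO cells, 4 in untreated WT cells and 2 in KO cells with LPS, but for 42 in WT cells with LPS, where the library was replicate 4 each time.

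The share of mapped reads in the 86 genes had a gap ratio of 0.845, with 5.22% in replicate 4 of WT cells with LPS beside 2.64 to 3.04% in the others. Among genes named in the text, the same library gave a ratio of 0.915 for Rps14, at 12330 normalised reads beside 4942 to 5574, and of 0.905 for Rpl32l, at 109 beside 36.6 to 43.4. For the stalk genes the ratio was 0.893 for Rplp1, at 18510.1 beside 6967 to 8201, and 0.886 for Rplp2, at 10497 beside 3703 to 4476. It was 0.868 for Rpl39, 0.858 for Rps27l, 0.857 for Rpl37rt, 0.851 for Rpl8 and 0.832 for Rps27rt. In each of these that library was the highest of its group.

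Other libraries were far from their group for single genes. Replicate 1 of untreated WT cells had a gap ratio of 0.947 for Rps19bp1, at 319.995 normalised reads beside 278 to 280.3, and of 0.921 for Rps28, at 980.2 beside 679.9 to 704. Replicate 3 of untreated WT cells had a ratio of 0.914 for Rpl37rt, at 686 beside 824 to 837. Replicate 2 of untreated KO cells had a ratio of 0.829 for Rpl29, at 11.6 beside 9.12 to 9.54.

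Some companion genes responded differently to LPS in KO and WT cells, by the test of the difference itself (limma, adjusted over all genes tested). The difference of the log2 responses, KO minus WT, was 1.6 for Myc, 1.14 for Polr1b, 0.532 for Ubtf, 0.467 for Eif4b and 0.413 for Mrps2. It was -1.99 for Mxd1, -1.33 for Eif4ebp1, -0.458 for Mrpl45 and -0.426 for Mrpl19. The adjusted p-values ran from 8.57e-08 for Mxd1 and 3.66e-06 for Myc to 0.0419 for Eif4b, with 4 libraries in each of the 4 groups. Leaving out replicate 4 of WT cells with LPS gave differences of 1.60 for Myc, 0.971 for Polr1b, 0.483 for Ubtf, 0.311 for Eif4b, 0.343 for Mrps2, -2.13 for Mxd1, -1.20 for Eif4ebp1, -0.388 for Mrpl45 and -0.324 for Mrpl19.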

How the results depend on the processing

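Counts of ribosomal protein genes past the threshold moved between alternatives, of which library totals, library weights and removal of a length trend also change the log2 values. The counts over all 11791 genes tested, higher and lower, moved too and stand in parentheses. KO against WT cells without LPS gave 2 higher and 12 lower genes (2122 and 2058). The counts were 10 and 34 with a trend on transcript length removed (2694 and 2749). They were 9 and 34 with that trend taken from other genes (2680 and 2758) and 1 and 28 on library totals (1561 and 2802). Library weights gave 6 and 53 (3730 and 3615), and leaving other groups out of the fit gave 5 and 54 (3695 and 3579). KO against WT cells with LPS gave 2 higher and 41 lower (2600 and 2603). The counts were 10 and 41 with the length trend removed (3086 and 3057) and 8 and 43 with the trend from other genes (3054 and 3071). They were 9 and 42 with library weights (3284 and 3248), and only the groups compared gave 1 and 10 (1568 and 1629). LPS in WT cells gave 57 higher and 0 lower (4027 and 4270). Library totals gave 1 and 6 (1971 and 7046), and only the groups compared gave 10 and 0 (3358 and 3751). LPS in KO cells gave 8 higher and 0 lower (3715 and 4259). The counts were 56 and 0 with the length trend removed (4649 and 4204) and 63 and 0 with the trend from other genes (4673 and 4183). They were 75 and 0 with library weights (4707 and 5134). Library totals gave 1 and 7 (1987 and 6780), and only the groups compared gave 81 and 1 (4714 and 5122). The difference of the responses gave 0 and 0 (1205 and 1231). It gave 0 and 1 with the length trend removed (1798 and 1744) and with the trend from other genes (1795 and 1745). Library weights gave 2 and 2 (2259 and 2300).

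Leaving out 1 library at a time gave 1 to 5 higher and 8 to 52 lower without LPS, 1 to 9 higher and 29 to 57 lower with LPS, 38 to 71 higher in WT cells after LPS, 5 to 73 higher in KO cells after LPS, and 0 to 3 higher and 0 to 2 lower for the difference. Replicate 4 of WT cells with LPS gave 5, 52, 9, 73 and 3 of these; no other library moved a lower count by over 1.5 times in KO against WT cells. Counts over all 11791 genes tested moved too. Without untreated KO replicate 1, which gave 8 lower without LPS, 1721 of all genes were lower, against 3430 where 52 were. The fits with 29 and 57 lower with LPS had 2269 and 2905 lower over all genes. Those with 38 and 71 higher in WT cells after LPS had 3829 and 4081 higher over all genes. The call on Rps28 without LPS was lost in 14 of 26 alternatives and that on Rpl29 with LPS in 6. No named value changed sign where called.

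RNA polymerase II gave 15 higher and 11 lower regions (background 24.1% and 20.3%). Library totals gave 0 and 62 (background 2.79% and 90.4%). Regions within 1 kb of a start gave 0 and 1, and regions overlapping the gene 6 lower. Leaving out a library gave 14 to 17 higher and 8 to 10 lower. MED1 gave 5 and 1 (background 5.16% and 1.92%). Library totals gave 1 and 76 there (background 0.61% and 67.9%). Regions within 1 kb gave 1 and 0, regions overlapping the gene 2 and 0, and leaving out a library 1 to 3 higher and 1 to 2 lower. ATAC-seq promoter sites gave 0 and 0 (background 2.15% and 4.16%), against 1 higher with no trend of the spread. Over all sites 14 and 3 passed (background 4.04% and 3.16%). For the other alternatives the shares over all regions are not given here, so those counts cannot be set against them. Why these counts moved was not tested, beyond the scaling and the fewer regions of those alternatives.

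With the replicate number as a block the counts, higher and lower, were 1 and 11 without LPS and 2 and 38 with LPS. They were 54 and 0 in WT cells after LPS, 7 and 0 in KO cells after LPS, and 0 and 0 for the difference. Over all 11791 genes tested they were, in that order, 1981 and 1901, 2461 and 2450, 3948 and 4200, 3629 and 4190, and 1040 and 1114. With that block the counts were 16 and 11 for RNA polymerase II, 5 and 1 for MED1 and 0 and 0 for ATAC-seq. Their shares over all regions with the block are not given here. The libraries share only a number.

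The length trend from other genes, the precision weights and the regions overlapping the gene were chosen after seeing the data. The count test listed as an alternative was not run, because the deposited values are not counts. Short transcripts, pseudogene copies and the 2 ChIP-seq libraries per group limit what single genes can show, and low genes such as Rpl3l and Rpl29 rest on few reads.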
